A study of Mus musculus with 12 samples.

Results

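The 32 genes described here make cholesterol and fatty acids or answer to sterols. They comprise 18 enzymes of sterol synthesis, and 14 genes of sterol control, fatty acid synthesis and desaturation, and the liver X receptor (LXR). A gene was taken where the array's probe annotation gave its symbol alone, from the row with the highest mean where several rows carried it. This found 29 of the 32 genes, 16 of the sterol synthesis enzymes and 13 of the others, and all 29 lay above the filter on low signal, among 16860 genes tested in all. Idi1 and Scd2 were annotated only on rows shared with another symbol and are given as rows outside all counts. Acat2, the cytosolic thiolase at the head of the pathway, had no row matched here and was not analysed.

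The cells came from Kit-enriched bone marrow of Tet2fl/fl;CreER mice, in which exons of Tet2 are flanked by loxP sites and a tamoxifen-responsive Cre recombinase is carried. All 12 samples carried the AML1-ETO fusion oncogene, delivered with GFP by a MigR1 retrovirus, and all were replated in methylcellulose before growth in suspension with SCF, IL-3 and IL-6. Tet2-/- cells had been given 200 nM 4-hydroxytamoxifen (4-OHT) for 2 passages, which is 4 days. Tet2fl/fl cells had been given ethanol for the same time, so 4-OHT exposure and Cre activation went with the deletion in both Tet2-/- groups. Cells were harvested at passage 2 and at passage 10 with passages of 2 days, and GFP+, CD11b-, Gr1-, CD16/32+ immature myeloid cells were sorted. Each of the 4 groups of genotype and passage held 3 arrays numbered 1 to 3. Whether equal numbers in different groups mark 1 starting culture is not given in the labels, nor is how many mice were used.

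Cholesterol is built from acetyl-CoA through mevalonate, farnesyl pyrophosphate, squalene and lanosterol. When membrane sterol is low, the transcription factor SREBP-2 is released from the endoplasmic reticulum and raises the genes of this pathway, and INSIG proteins hold it back when sterol is plentiful. LXR works from the opposite side: oxysterols activate it, and it raises cholesterol exporters, SREBP-1 and the desaturase SCD1. In myeloid cells LXR activity is best known from macrophages that have taken up cholesterol.

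Signal is given on the log2 scale, so that a difference of 1 unit is a 2-fold difference. Array medians lay between 5.57 and 5.68, and arrays of 1 group correlated at 0.984 to 0.991. The Tet2 row had 9.89 to 10.08 in Tet2fl/fl cells at passage 2 and 9.89 to 9.98 in Tet2-/- cells, and at passage 10 it had 9.80 to 9.93 and 9.64 to 9.93. Which part of the Tet2 transcript this row covers relative to the deleted exons is not given in the sources used here, so it does not check the deletion. The 11 listed markers of early myeloid cells, among them Mpo, Ctsg and Cd34, averaged 10.61 to 11.49 per array. Single markers varied more than this mean. Kit ranged from 9.56 to 10.36 over the Tet2-/- arrays and from 10.44 to 11.14 over the Tet2fl/fl arrays, and Elane from 8.27 to 12.03 over all arrays. Averaged over passages, genotype differences ran from -0.82 (Kit) to 0.52 (Cebpa). Of the 11 markers 5 were higher in Tet2-/- cells and 6 lower, with 1 lower at an adjusted p under 0.05. The part of these markers in the differences of members was not tested. Markers of mast cells and basophils averaged 10.72 to 11.74, those of eosinophils 7.08 to 9.17, and those of B and T cells 4.93 to 5.56, though levels of different probes do not rank the cell types. In RNA from a sorted pool, fewer cells of a type and less RNA per cell cannot be told apart. Differences carry the SE of 1 limma fit to all arrays, with p-values adjusted by Benjamini-Hochberg over the 16860 genes and called below 0.05.

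Promoter sequence from RefSeq (GRCm38.p6), 250 bases before to 50 after the start of each gene, was at hand for 24 of the 32 genes. Both strands were searched for TCACNCCAC, a sterol regulatory element bound by SREBPs, for CCAAT, the motif of their partner NF-Y, and for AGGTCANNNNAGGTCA, the LXR repeat spaced by 4 bases. Genes were counted, and a gene with several promoters counted where any of them matched. CCAAT was found for 14 of 15 sterol synthesis genes (93.3%) and for 5 of 9 others (55.6%), against 41.1% of 27025 genes with a promoter. TCACNCCAC was found for 1 of the 24 genes, Hmgcs1, against 1.44% of those 27025. The exact LXR repeat was found for 0 of the 24 and for 4 of 27025. Only exact copies of the 3 motifs were sought, and a site differing in 1 base was missed. With so few exact copies among all genes, the search cannot show that a member lacks an LXR element. The 3 stretches below lie upstream of Hmgcs1, which holds the sterol element, of Hsd17b7, the sterol enzyme with the largest difference between groups, and of Mylip, an LXR target. Capitals mark TCACCCCAC and ATTGG, which is CCAAT read on the other strand. The matches describe the letters only, and neither binding nor methylation was measured in these samples.
Hmgcs1 promoter, chr13:119690101-119690350, plus strand: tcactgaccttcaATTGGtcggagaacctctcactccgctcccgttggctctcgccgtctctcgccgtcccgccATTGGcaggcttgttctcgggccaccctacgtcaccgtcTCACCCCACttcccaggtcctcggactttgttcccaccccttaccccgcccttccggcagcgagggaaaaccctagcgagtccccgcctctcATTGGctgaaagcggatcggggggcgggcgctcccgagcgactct
Hsd17b7 promoter, chr1:169969243-169969455, minus strand: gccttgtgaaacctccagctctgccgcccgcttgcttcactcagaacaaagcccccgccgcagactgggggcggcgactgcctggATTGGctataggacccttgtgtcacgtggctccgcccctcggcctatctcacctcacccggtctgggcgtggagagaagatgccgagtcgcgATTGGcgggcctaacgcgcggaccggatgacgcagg
Mylip promoter, chr13:45389492-45389741, plus strand: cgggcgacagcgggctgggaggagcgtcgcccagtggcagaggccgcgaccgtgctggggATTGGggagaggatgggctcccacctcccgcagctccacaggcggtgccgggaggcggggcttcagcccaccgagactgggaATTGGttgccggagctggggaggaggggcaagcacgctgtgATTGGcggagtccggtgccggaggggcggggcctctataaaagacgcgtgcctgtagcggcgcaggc
The sterol element of Hmgcs1 lies at positions -137 to -129 relative to the start, between CCAAT matches at -176 to -172 and at -45 to -41. Hsd17b7 and Mylip hold CCAAT matches on the other strand at -73 to -69 and at -67 to -63.

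At passage 2 the sterol synthesis enzymes of both genotypes had similar signal, and Scd1 and Ch25h stood furthest apart. Sterol synthesis enzymes differed between Tet2-/- and Tet2fl/fl cells by -0.23 to 0.09 log2 units, and the other members by -0.57 (Ch25h) to 0.53 (Scd1). 0 of 29 members passed the test, against 0.00593% of all genes, or 0.409% with the replicate number as a block, where again 0 members passed. At an unadjusted p under 0.05, 1 member was higher (Scd1) and 1 was lower (Nsdhl), against 4.29% and 5.65% of all genes. The median difference was -0.02 for the 16 sterol synthesis enzymes and 0.05 for the 13 others, against -0.003 for all genes.

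At passage 10 no member passed between genotypes, and the largest difference among them was that of Abca1, whose mean log2 signal was 8.26 in Tet2-/- cells and 6.98 in Tet2fl/fl cells. 0 of 29 members passed the test, against 0.225% of all genes, or 1.31% with the replicate block, where again 0 members passed. At an unadjusted p under 0.05, 7 members were higher in Tet2-/- cells, against 4.59% of all genes: Abca1, Abcg1, Mylip, Scd1, Fads2, Srebf1 and Pmvk. Ch25h and Hsd17b7 were lower by the same measure, which 6.01% of all genes met. The arrays of the 2 groups did not overlap for 5 higher members (Abca1, Abcg1, Scd1, Srebf1 and Pmvk), against 6.55% of all genes. Nor did they for 1 lower member (Hsd17b7, whose nearest arrays both rounded to 8.55), against 9.80%. At passage 2 these counts were 3 (Scd1, Fads2 and Dhcr7) and 0, against 7.12% and 8.17%. The median difference at passage 10 was 0.007 for the sterol synthesis enzymes, of which 9 of 16 were positive, and 0.12 for the others, of which 9 of 13 were positive, against -0.008 for all genes, of which 47.4% were positive.

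Averaged over both passages, 0 of 29 members passed between genotypes, against 1.72% of all genes. At an unadjusted p under 0.05, 5 members were higher in Tet2-/- cells (Scd1, Abca1, Abcg1, Fads2 and Srebf1) and 3 were lower (Ch25h, Hsd17b7 and Nsdhl), against 6.80% and 9.33% of all genes. The 6 arrays of each genotype did not overlap for 1 higher member (Scd1) and 0 lower ones, against 0.658% and 1.13%. With the replicate block 3 members passed, against 5.41% of all genes: Scd1 and Abca1 were higher in Tet2-/- cells and Hsd17b7 was lower. A test of whether the genotype difference changed with passage called 0 members and 0% of all genes, or 0 members and 0.00593% with the block. By that test 2 members had an unadjusted p under 0.05 and a larger difference at passage 10, Abca1 and Pmvk, and 0 a smaller one, against 1.67% and 1.55% of all genes.

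**Figure D1:**
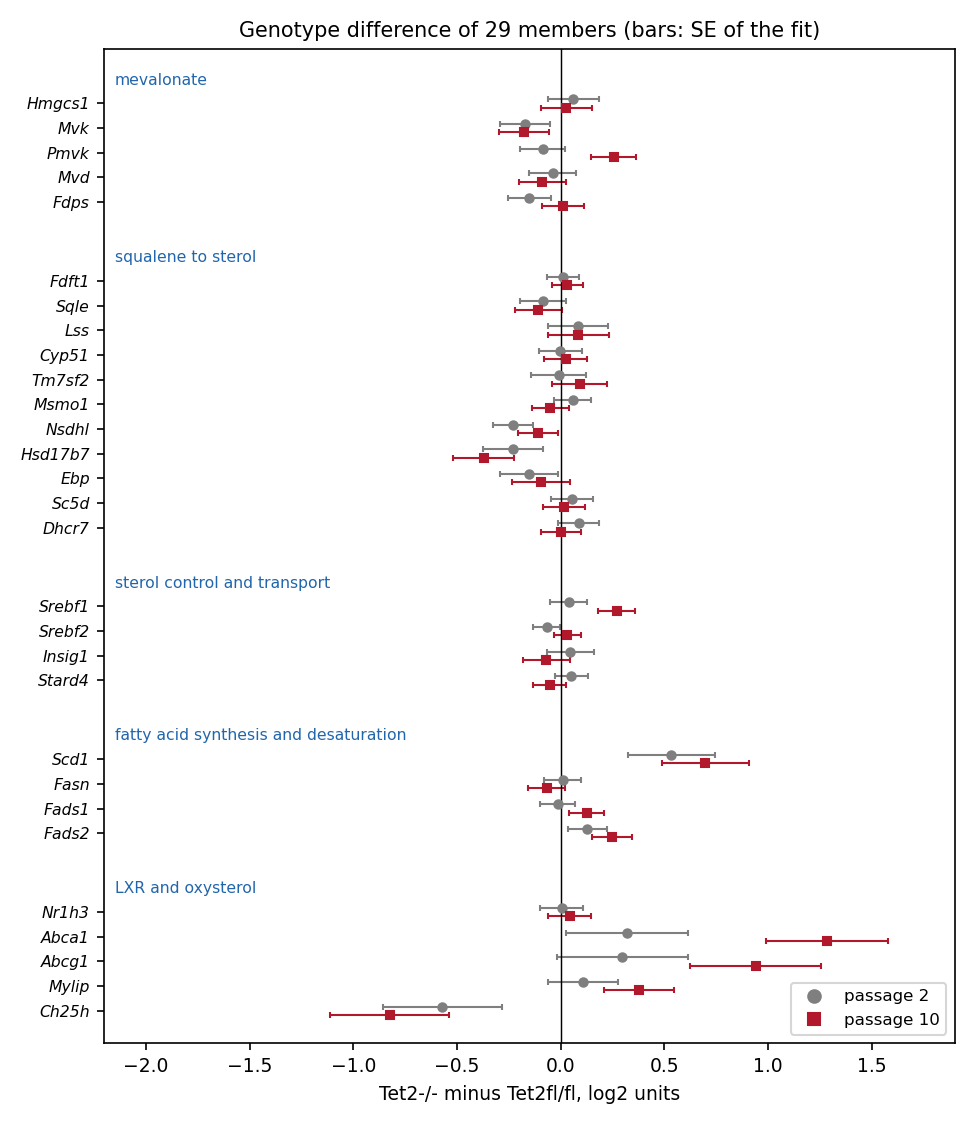
Difference in log2 signal between Tet2-/- and Tet2fl/fl cells (horizontal axis) for each of the 29 members, grouped by role, at passage 2 (grey circles) and passage 10 (red squares), with bars giving the SE of the fit. Sterol synthesis enzymes lie between -0.37 (Hsd17b7) and 0.26 (Pmvk), Abca1 reaches 1.28 at passage 10, and Ch25h lies at -0.57 and -0.83.

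With passage, 1 member fell in Tet2-/- cells and 2 fell on the average of both genotypes. Ch25h, which makes 25-hydroxycholesterol, was lower at passage 10 in both genotypes, and Hsd17b7, a late enzyme of sterol synthesis, was lower on the average. In Tet2fl/fl cells 0 of 29 members passed, as did 0% of all genes, or 0 members and 0.0415% with the replicate block. By unadjusted p under 0.05, 0 members were higher at passage 10 in Tet2fl/fl cells and 3 were lower (Ch25h, Pmvk and Hsd17b7), against 5.72% and 4.50% of all genes. Their arrays did not overlap between passages for 0 higher and 3 lower members (Ch25h, Pmvk and Fdps), against 7.99% and 6.55%.

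In Tet2-/- cells 1 member passed between passages (Ch25h), against 2.98% of all genes, and 3 passed with the replicate block (Ch25h and Hsd17b7 lower, Mylip higher), against 7.94%. By unadjusted p under 0.05, 4 members were higher at passage 10 (Abca1, Abcg1, Mylip and Srebf1) and 3 lower (Ch25h, Hsd17b7 and Dhcr7), against 10.8% of all genes in each direction. Those same members were the ones whose arrays did not overlap between passages, against 15.4% of all genes higher and 12.9% lower. On the average of both genotypes 2 members passed (Ch25h and Hsd17b7, both lower), against 7.77% of all genes, and 3 passed with the block (Mylip higher), against 13.2%. By unadjusted p under 0.05, 1 member was higher on that average (Mylip) and 3 were lower (Ch25h, Hsd17b7 and Dhcr7), against 14.5% and 12.3%. The 6 arrays of each passage did not overlap for 0 higher members and 1 lower one (Ch25h), against 1.55% and 2.25%. The genotype and passage comparisons use the same arrays, so a member's values in them are not independent.

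**Figure D2:**
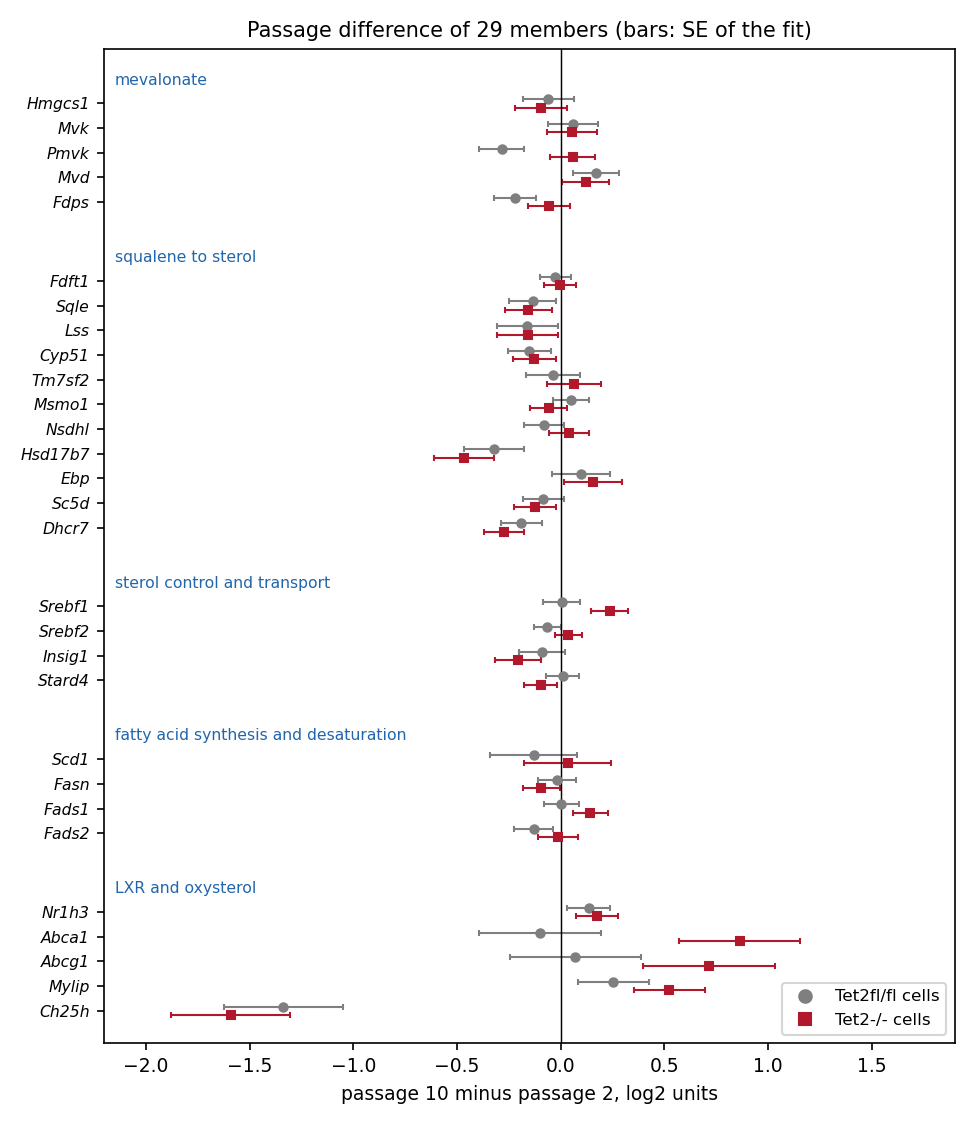
Difference in log2 signal between passage 10 and passage 2 (horizontal axis) for each of the 29 members, grouped by role, in Tet2fl/fl cells (grey circles) and Tet2-/- cells (red squares), with bars giving the SE of the fit. Ch25h lies at -1.34 and -1.59, and Abca1 lies at -0.10 in Tet2fl/fl cells and 0.86 in Tet2-/- cells.

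Among the mevalonate enzymes the group means of a gene spanned 0.28 log2 units at most, and none passed in any comparison. Hmgcs1, the HMG-CoA synthase that a sterol-poor cell raises through SREBP-2, had log2 signals of 10.55, 10.66 and 10.40 in Tet2fl/fl cells and 10.51, 10.79 and 10.50 in Tet2-/- cells at passage 2. At passage 10 it had 10.51, 10.60 and 10.33 in Tet2fl/fl cells and 10.33, 10.71 and 10.48 in Tet2-/- cells. All 4 groups overlapped, and replicate 2 was the highest array in each. Mvk, the mevalonate kinase, had the lowest p of the mevalonate enzymes in the averaged comparisons. Its signals were 8.48, 8.71 and 8.74 in Tet2fl/fl cells and 8.39, 8.40 and 8.63 in Tet2-/- cells at passage 2, and 8.46, 8.75 and 8.89 against 8.48, 8.47 and 8.62 at passage 10. The groups overlapped, and the averaged genotype difference was -0.17 ± 0.09 (adjusted p = 0.345).

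Pmvk, the phosphomevalonate kinase that follows, had a narrow low group. Its log2 signal was 8.08, 8.42 and 8.12 in Tet2fl/fl cells at passage 2 and 7.89, 7.91 and 7.96 at passage 10, and these groups did not overlap. In Tet2-/- cells it was 8.02, 8.04 and 8.30 at passage 2 and 8.15, 8.11 and 8.28 at passage 10, which overlapped. The change of the genotype difference with passage was 0.34 ± 0.15 (unadjusted p = 0.0467, adjusted p = 0.999). Mvd, the decarboxylase that makes isopentenyl pyrophosphate, ranged from 9.10 to 9.50 over the 12 arrays. Fdps, which joins isoprene units into farnesyl pyrophosphate, ranged from 11.42 to 11.81, with Tet2fl/fl cells at 11.66 to 11.79 at passage 2 and 11.45 to 11.57 at passage 10. The row shared by Idi1, the isopentenyl pyrophosphate isomerase, and Gm13502 had group means of 10.19, 10.18, 10.14 and 9.98 in Tet2fl/fl p2, Tet2-/- p2, Tet2fl/fl p10 and Tet2-/- p10 cells.

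From squalene to cholesterol, Hsd17b7 fell with passage and the other 10 enzymes did not pass. Hsd17b7 encodes the 3-ketosteroid reductase of the C4 demethylation steps. Its log2 signal was 8.91, 9.29 and 9.11 in Tet2fl/fl cells and 8.76, 8.77 and 9.09 in Tet2-/- cells at passage 2. At passage 10 it was 8.55, 8.95 and 8.84 in Tet2fl/fl cells and 8.21, 8.47 and 8.55 in Tet2-/- cells. The Tet2-/- arrays at passage 10 were the lowest group, though its highest array and the lowest Tet2fl/fl array of that passage both rounded to 8.55. Passages overlapped in Tet2fl/fl but not in Tet2-/- cells. In all 6 pairs of arrays with the same genotype and number the passage 10 array was the lower, with differences of -0.56 to -0.28. Hmgcs1 and Lss, which did not pass, were also lower in every such pair. The share of all genes with this pattern was not computed. The average passage difference was -0.39 ± 0.10, a 1.31-fold decrease (adjusted p = 0.0408).

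That call of Hsd17b7 held in 9 of 20 alternatives, with adjusted p from 0.00913 (replicate block) to 0.0930, and was lost with equal array medians, without the filter and on leaving out any of 9 arrays. Leaving out replicate 2 or 3 of Tet2fl/fl p2, 1 or 3 of Tet2-/- p2, 1 or 3 of Tet2fl/fl p10, or any replicate of Tet2-/- p10 gave adjusted p from 0.0517 to 0.0930. Within Tet2-/- cells the passage difference was -0.47 ± 0.15 (adjusted p = 0.100 without the block and 0.0254 with it, 0.0254 to 0.270 over the alternatives). Between genotypes the average difference was -0.30 ± 0.10 (adjusted p = 0.169 without the block and 0.0395 with it, up to 0.328 over the alternatives). Cell cycle genes moved the same way with passage: all 17 tested were lower at passage 10 in both genotypes, 12 of them called on the average and 15 with the block, and their mean per array was 10.09 to 10.60 at passage 2 and 9.73 to 10.10 at passage 10. The part of the cell cycle genes in the passage difference of Hsd17b7 was not tested.

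Nsdhl, which works beside Hsd17b7 at C4, was the only member with an unadjusted p under 0.05 and lower signal in Tet2-/- cells at passage 2. Its signals there were 11.27, 11.32 and 11.37 in Tet2fl/fl and 10.96, 11.04 and 11.27 in Tet2-/- cells, which met at 11.27, a difference of -0.23 ± 0.10 (adjusted p = 0.466). At passage 10 they were 11.10, 11.25 and 11.37 against 11.14, 11.07 and 11.18. Dhcr7, the last reductase before cholesterol, was 8.80, 8.85 and 8.84 in Tet2fl/fl cells and 8.89, 8.98 and 8.88 in Tet2-/- cells at passage 2. At passage 10 it was 8.82, 8.68 and 8.42 against 8.56, 8.69 and 8.68. All 3 Tet2-/- arrays at passage 10 lay below all 3 at passage 2, and the average passage difference was -0.23 ± 0.07 (adjusted p = 0.0641). It passed in 3 of 20 alternatives, whose adjusted p ran from 0.0326, without Tet2fl/fl p10 replicate 1, to 0.130.

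None of the remaining 8 enzymes of this stretch passed, and their spans over the 12 arrays were 0.20 to 0.63, against a median of 0.55 for all genes. Fdft1, the squalene synthase, ranged from 11.00 to 11.20, and its group means spanned 0.04, the least of the sterol synthesis enzymes. Sqle, the squalene epoxidase and a rate-limiting step, ranged from 10.09 to 10.72, and Lss, the lanosterol synthase, from 9.25 to 9.88. Cyp51, the lanosterol demethylase, ranged from 9.64 to 10.04. Tm7sf2, a C14 reductase, ranged from 7.80 to 8.37, and Msmo1, the C4 methyl oxidase, from 10.01 to 10.30. Ebp, the sterol isomerase, ranged from 9.20 to 9.76, and Sc5d, the C5 desaturase, from 10.17 to 10.54. Across the 16 sterol synthesis enzymes the range of the 4 group means had a median of 0.23 and was over 0.3 for 1 gene, Hsd17b7 with 0.69. Among the 13 other members the median was 0.26 and 5 had a range over 0.3, while the median over all genes was 0.24. How many of all genes had a range over 0.3 was not computed, so these counts have no background.

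As a list, the sterol synthesis enzymes had slightly lower means at passage 10, with overlapping groups. Their mean per array was 9.75, 9.92 and 9.78 in Tet2fl/fl cells and 9.69, 9.73 and 9.87 in Tet2-/- cells at passage 2, and 9.65, 9.80 and 9.73 against 9.58, 9.73 and 9.79 at passage 10. The average passage difference was negative for 12 of 16 enzymes with a median of -0.09, while 59.8% of all genes were positive, with a median of 0.04.

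**Figure D3:**
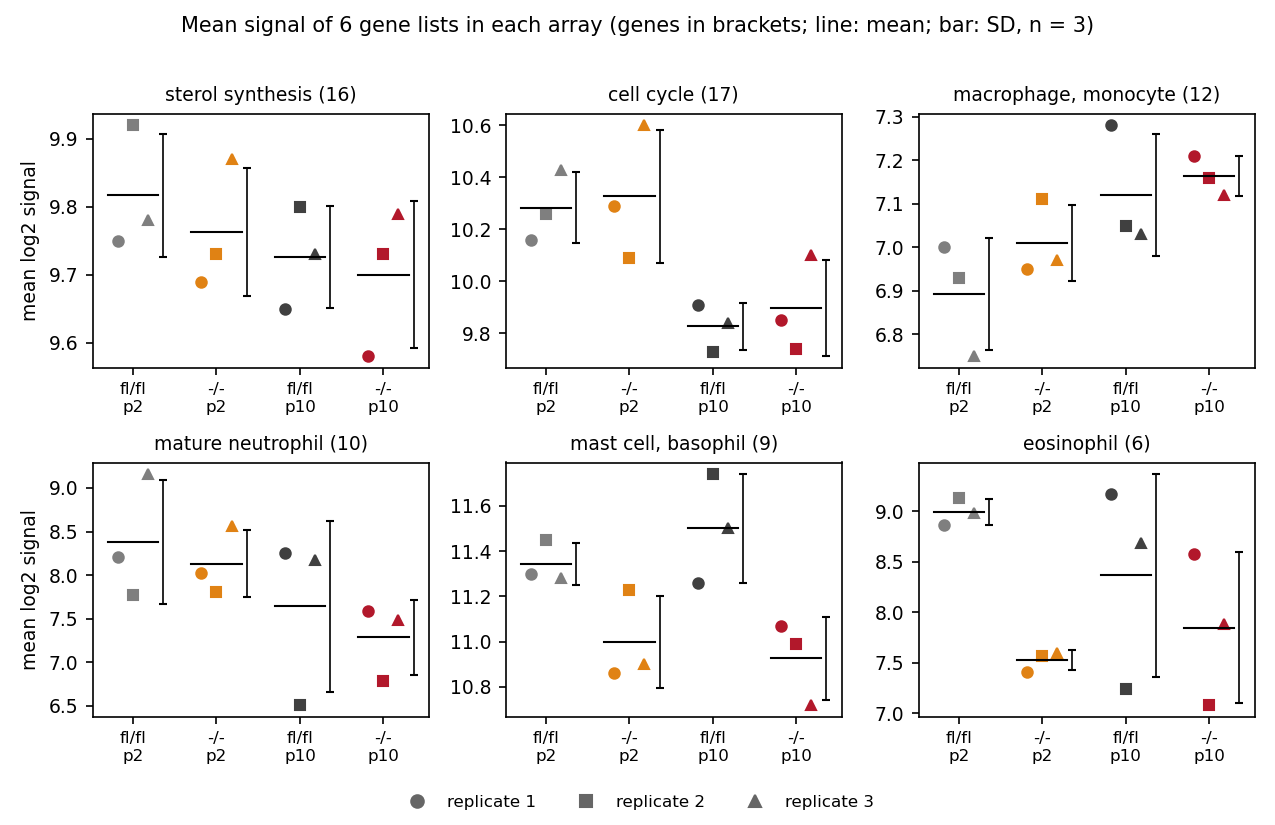
Mean log2 signal of 6 gene lists (vertical axis) in each array, by group of genotype and passage, with the number of genes in brackets, lines for group means and bars for the SD of 3 arrays. The 4 groups overlap for sterol synthesis. The cell cycle list lies at 10.09 to 10.60 at passage 2 and at 9.73 to 10.10 at passage 10, so the passages overlap slightly, within Tet2-/- cells.

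Of the genes that control the pathway, Srebf1 differed most and Srebf2 least. Srebf1 encodes SREBP-1, whose transcript is an LXR target and which drives fatty acid genes. The arrays had log2 signals of 9.17, 9.01 and 8.87 in Tet2fl/fl cells and 8.99, 9.05 and 9.14 in Tet2-/- cells at passage 2, and 9.11, 8.97 and 9.0 against 9.30, 9.35 and 9.24 at passage 10. The 3 Tet2-/- arrays at passage 10 were the highest of all 12. They exceeded Tet2fl/fl cells of that passage by 0.27 ± 0.09 (1.21-fold, adjusted p = 0.286) and Tet2-/- cells of passage 2 by 0.24 ± 0.09 (adjusted p = 0.154).

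Srebf2, which encodes SREBP-2, stayed between 10.88 and 11.01 in every array, and its group means spanned 0.07. Insig1, the sterol-sensing retention protein and itself an SREBP target, ranged from 10.30 to 10.85, and its average passage difference was -0.15 ± 0.08 (adjusted p = 0.257). Stard4, a carrier of cholesterol through the cytosol and also an SREBP target, ranged from 9.16 to 9.43. None of these 3 passed in any comparison, with or without the block.

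In fatty acid synthesis and desaturation, Scd1 was the member that separated the genotypes. Scd1 encodes the stearoyl-CoA desaturase, which makes oleate and is a target of both LXR and SREBP-1. Its log2 signal was 10.88, 10.56 and 10.10 in Tet2fl/fl cells and 11.00, 11.23 and 10.91 in Tet2-/- cells at passage 2. At passage 10 it was 10.74, 10.42 and 9.99 in Tet2fl/fl cells and 10.91, 11.20 and 11.14 in Tet2-/- cells. All 6 Tet2-/- arrays lay above all 6 Tet2fl/fl arrays, and replicate 1 of Tet2fl/fl cells came closest at both passages. Within pairs of equal number the difference was 0.12, 0.67 and 0.81 at passage 2 and 0.16, 0.78 and 1.14 at passage 10.

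At passage 2 the genotype difference of Scd1 was 0.53 ± 0.21, or 1.45-fold (adjusted p = 0.434), and 0.33 to 0.71 on leaving out 1 array. It was 0.70 ± 0.21, or 1.62-fold, at passage 10 (adjusted p = 0.253). Averaged it was 0.61 ± 0.15, or 1.53-fold, and missed the threshold (adjusted p = 0.0631). With the replicate block it passed (adjusted p = 0.0220), and it passed in 4 of 20 alternatives, with adjusted p up to 0.143. Those were the block, array weights, and leaving out Tet2fl/fl p2 replicate 1 (adjusted p = 0.0461) or Tet2fl/fl p10 replicate 1 (adjusted p = 0.0295). Its passage differences were -0.13 in Tet2fl/fl and 0.03 in Tet2-/- cells. Markers of other myeloid cells are given beside Scd1. The 6 eosinophil markers averaged 8.87 to 9.13 per array in Tet2fl/fl cells and 7.41 to 7.60 in Tet2-/- cells at passage 2, and 7.24 to 9.17 against 7.08 to 8.58 at passage 10. On the average of both passages 5 of the 6 were lower in Tet2-/- cells, with 0 called and 2 called lower with the block (Epx and Il5ra). The 9 markers of mast cells and basophils averaged 11.28 to 11.45 against 10.86 to 11.23, and 11.26 to 11.74 against 10.72 to 11.07. Of these 6 were lower on the average, with 1 called (Tpsab1) and 4 called with the block. The 7 tested markers of dendritic cells averaged 5.49 to 5.93 in Tet2fl/fl cells and 6.01 to 6.19 in Tet2-/- cells at passage 2, and 5.73 to 6.05 against 5.82 to 6.23 at passage 10. All 7 were higher in Tet2-/- cells on the average, with 0 called and 2 called with the block (Flt3 and H2-Ab1). The part of these cells in the genotype difference of Scd1 was not tested.

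The other desaturases lay closer together. Fads2, the delta-6 desaturase, had log2 signals of 11.86, 11.84 and 11.80 in Tet2fl/fl cells and 11.98, 11.87 and 12.04 in Tet2-/- cells at passage 2. At passage 10 it had 11.86, 11.71 and 11.53 against 11.86, 12.08 and 11.91. The groups met at 11.86 at passage 10, where the difference was 0.25 ± 0.10 (adjusted p = 0.376). Fads1, the delta-5 desaturase, ranged from 11.04 to 11.39. Fasn, the fatty acid synthase, ranged from 11.63 to 12 and differed between genotypes by 0.01 at passage 2 and -0.07 at passage 10. The row shared by Scd2, a second desaturase of the Scd1 kind, and Mir5114 had group means of 12.68 in Tet2fl/fl cells and 12.81 in Tet2-/- cells at passage 2, and 12.59 and 12.84 at passage 10.

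**Figure D4:**
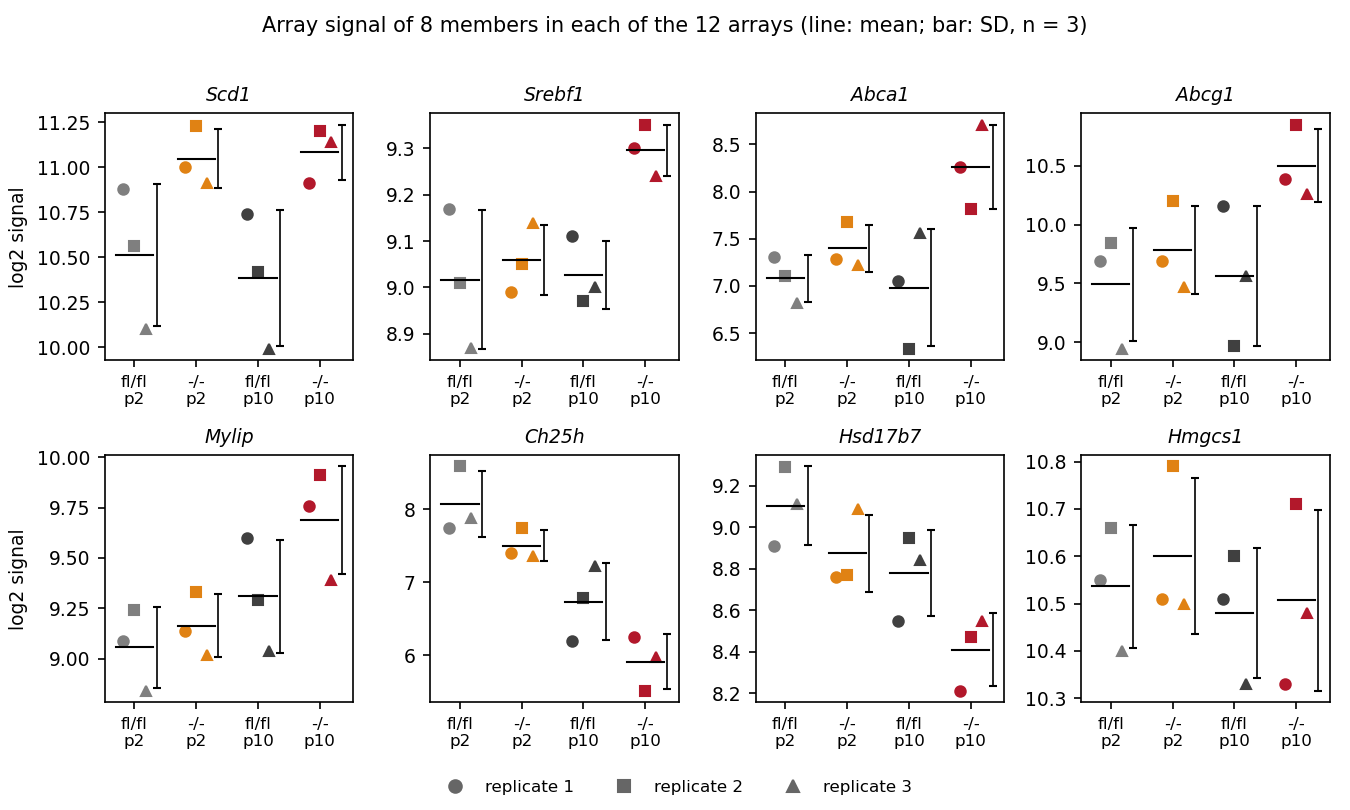
Log2 signal of 8 members (vertical axes) in each of the 12 arrays by group of genotype and passage, with marker shapes for the replicate numbers, lines for group means and bars for the SD of 3 arrays. All Tet2-/- arrays of Scd1 lie at 10.91 or above and all Tet2fl/fl arrays at 10.88 or below, Abca1 and Abcg1 are highest in Tet2-/- cells at passage 10, and Ch25h is lower at passage 10 in both genotypes.

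The LXR targets Abca1, Abcg1 and Mylip had their highest means in Tet2-/- cells at passage 10. Of 7 further LXR genes tested, Rxrb and Cyp27a1 also did, and Lpcat3, Apoe, Smpdl3a, Nceh1 and Rxra did not. In Tet2fl/fl p2, Tet2-/- p2, Tet2fl/fl p10 and Tet2-/- p10 cells, Lpcat3 had means of 12.43, 12.23, 12.31 and 12.29. In the same order Apoe had 6.38, 6.64, 6.29 and 6.44, and Smpdl3a 7.92, 8.11, 7.07 and 7.76. Abca1 encodes the transporter that loads cholesterol onto lipid-poor apolipoprotein. Signals were 7.31, 7.11 and 6.82 in Tet2fl/fl cells and 7.29, 7.68 and 7.22 in Tet2-/- cells at passage 2, and 7.05, 6.33 and 7.56 against 8.26, 7.82 and 8.71 at passage 10. The Tet2-/- arrays of passage 10 were above the other 9 arrays, and the other 3 groups overlapped. Within pairs of equal number at passage 10 the genotype difference was 1.21, 1.48 and 1.15.

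At passage 2 the genotype difference of Abca1 was 0.32 ± 0.29 (adjusted p = 0.765). It was 1.28 ± 0.29, or 2.44-fold, at passage 10 (adjusted p = 0.111). Between passages Abca1 differed by -0.10 in Tet2fl/fl cells, and by 0.86 ± 0.29 in Tet2-/- cells (adjusted p = 0.123). The change of the genotype difference with passage was 0.96 ± 0.41 (unadjusted p = 0.0399, adjusted p = 0.999). Averaged over passages the genotype difference was 0.80 ± 0.21, or 1.74-fold, and missed the threshold (adjusted p = 0.0776). It passed with the replicate block (adjusted p = 0.0494), with array weights (adjusted p = 0.0431) and without Tet2fl/fl p10 replicate 3 (adjusted p = 0.0479), and reached 0.169 over the 20 alternatives. Abca1 is abundant in macrophages, so their markers are given beside it. The 12 tested markers of macrophages and monocytes averaged 7.03 to 7.28 per array in Tet2fl/fl cells and 7.12 to 7.21 in Tet2-/- cells at passage 10, with 5 of 12 higher in Tet2-/- cells, a median difference of -0.01 and 0 called. On the average of both passages 8 of 12 were higher, with a median of 0.08, 0 called, and 1 called with the block (Adgre1). The 4 genes of the surface antigens sorted against (Itgam, Ly6g, Ly6c1 and Ly6c2) averaged 7.39 to 7.76 in Tet2fl/fl cells and 7.66 to 8.51 in Tet2-/- cells of that passage, with 3 of 4 higher and 0 called. Their part in the difference of Abca1 was not tested.

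Abcg1 passes cholesterol on to HDL particles, and its mean was also highest in Tet2-/- cells at passage 10. On the log2 scale it had 9.69, 9.84 and 8.94 in Tet2fl/fl cells and 9.69, 10.20 and 9.47 in Tet2-/- cells at passage 2, and 10.16, 8.97 and 9.56 against 10.39, 10.85 and 10.26 at passage 10. The Tet2-/- arrays of passage 10 were again above the other 9 arrays, the lowest at 10.26. Close below it were Tet2-/- p2 replicate 2, at 10.20, and Tet2fl/fl p10 replicate 1, at 10.16. The difference at passage 10 was 0.94 ± 0.32, or 1.92-fold (adjusted p = 0.302), and by pairs it was 0.23, 1.88 and 0.70. At passage 2 it was 0.30 ± 0.32 (adjusted p = 0.803), and 0.02 without Tet2fl/fl p2 replicate 3.

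Mylip encodes IDOL, a ubiquitin ligase through which LXR limits the uptake of lipoprotein cholesterol. Log2 signals of Mylip were 9.09, 9.24 and 8.84 in Tet2fl/fl cells and 9.14, 9.33 and 9.02 in Tet2-/- cells at passage 2, and 9.60, 9.29 and 9.04 against 9.76, 9.91 and 9.39 at passage 10. Passages overlapped in Tet2fl/fl cells and did not in Tet2-/- cells, and genotypes overlapped at both passages. In 6 of 6 pairs of the same genotype and number the passage 10 array was higher, by 0.06 to 0.62. Mvd, which did not pass, was also higher in every such pair, and the share of all genes was not computed. For Mylip the tests were as follows. The average passage difference was 0.39 ± 0.12, or 1.31-fold (adjusted p = 0.0714), and it passed with the replicate block (adjusted p = 0.0109) and without Tet2-/- p10 replicate 3 (adjusted p = 0.0494), with 0.0109 to 0.164 over the 20 alternatives. In Tet2-/- cells it was 0.52 ± 0.17 (adjusted p = 0.111 without the block and 0.0210 with it, up to 0.312 over the alternatives), and in Tet2fl/fl cells 0.25 ± 0.17 (adjusted p = 0.613).

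Nr1h3, which encodes LXR alpha, ranged from 5.23 to 5.62 over the 12 arrays, near the array medians. Its group means were 5.42 in both genotypes at passage 2, and 5.55 in Tet2fl/fl cells and 5.59 in Tet2-/- cells at passage 10. It passed in no comparison, and its average passage difference was 0.15 ± 0.07 (adjusted p = 0.197).

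In its average passage difference Ch25h went the other way from Abca1, Abcg1 and Mylip, and it had the largest span of all members, 3.08 log2 units over the arrays. It encodes cholesterol 25-hydroxylase, whose product both activates LXR and holds back SREBP release, and it is known as an interferon-induced gene. Its log2 signal was 7.75, 8.59 and 7.88 in Tet2fl/fl cells and 7.40, 7.75 and 7.36 in Tet2-/- cells at passage 2, and 6.19, 6.79 and 7.23 against 6.25, 5.51 and 5.98 at passage 10. All 6 arrays of passage 10 lay below all 6 of passage 2. The average passage difference was -1.46 ± 0.20, a 2.76-fold decrease (adjusted p = 0.00891), and it passed in all 20 alternatives with adjusted p from 0.00353 to 0.0302. The size was -0.89 where the mean of both Ch25h rows was used, since the dimmer row, with a mean of 5.67, differed by -0.32.

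Within Tet2-/- cells Ch25h fell by 1.59 ± 0.29 log2 units, or 3.01-fold (adjusted p = 0.0272). With the mean of both rows this was -0.87, still past the threshold. Leaving out replicate 1 or 3 of Tet2-/- p2 (adjusted p = 0.0907 and 0.0870) or replicate 1, 2 or 3 of Tet2-/- p10 (0.0591, 0.0921 and 0.0707) ended this call, as did a fit to only the arrays compared (0.0534). It passed in the other 15 of 21 alternatives, from an adjusted p of 0.00926. In Tet2fl/fl cells the difference was -1.34 ± 0.29 (adjusted p = 0.401), and its change with genotype was -0.25 (adjusted p = 0.999). Between genotypes Ch25h was lower in Tet2-/- cells by -0.57 ± 0.29 at passage 2 (adjusted p = 0.553), and the difference was -0.83 ± 0.29 (adjusted p = 0.319) at passage 10. Leaving out Tet2fl/fl p2 replicate 2 gave -0.31 at passage 2, and the mean of both rows gave -0.43 at passage 10. The average was -0.70 ± 0.20 (adjusted p = 0.108), or -0.45 with the mean of both rows, and it passed with array weights (adjusted p = 0.0395) and without Tet2fl/fl p10 replicate 1 (adjusted p = 0.0406), with up to 0.223 over 20 alternatives. Arrays overlapped at passage 10, where replicate 1 had 6.19 for Tet2fl/fl and 6.25 for Tet2-/- cells.

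Markers of mature neutrophils also had lower signal at passage 10. The 10 markers averaged 7.77 to 9.16 per array in Tet2fl/fl cells and 7.81 to 8.56 in Tet2-/- cells at passage 2, and 6.51 to 8.25 against 6.79 to 7.59 at passage 10. The median average passage difference of these markers was -0.74, with 8 of 10 negative and 1 called lower (Ngp), or 4 with the block. Their part in the passage difference of Ch25h was not tested.

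Among other genes of the same pathways, calls came with passage and not between genotypes unless the block was used. With passage on the average 2 of 11 sterol genes, 1 of 16 fatty acid genes and 1 of 7 LXR genes passed, against 7.77% of all genes. Of 15 further sterol genes 11 were tested, with 0 called between genotypes at either passage. Npc2, which carries cholesterol out of lysosomes, rose with passage in Tet2-/- cells by 0.53 ± 0.10 (adjusted p = 0.0295) and on the average by 0.37 ± 0.07 (adjusted p = 0.0178). In Tet2-/- cells its log2 signal was 10.93 to 11.03 at passage 2 and 11.43 to 11.60 at passage 10, without overlap. Mbtps2, the site-2 protease that releases SREBPs, was lower at passage 10 on the average by -0.21 ± 0.05 (adjusted p = 0.0412).

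Of 18 further fatty acid genes 16 were tested, with 0 called between genotypes at either passage and 1 called with passage. Acss2, which makes acetyl-CoA from acetate and is an SREBP target, rose on the average by 0.66 ± 0.16 (adjusted p = 0.0305). In Tet2-/- cells its log2 signal was 8.71, 9.35 and 9.06 at passage 2 and 9.90, 10.23 and 9.65 at passage 10, a difference of 0.89 ± 0.22 (adjusted p = 0.0527 without the block and 0.00881 with it). With the block, Acss2 was higher and the elongase Elovl7 lower in Tet2-/- cells on the average (0.34 and -0.24, adjusted p = 0.0488 and 0.0494, against 0.310 and 0.133 without it). Hsd17b12, a reductase of fatty acid elongation, had an average passage difference of -0.18 (adjusted p = 0.101 without the block and 0.0452 with it). The average passage difference was negative for 12 of these 16 genes, with a median of -0.08.

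Of 11 further LXR genes 9 had a row of their own and 7 were tested, Pltp and Lpl lying below the filter. Nceh1, a hydrolase of cholesterol esters, rose on the average by 0.30 ± 0.07 (adjusted p = 0.0276), and in Tet2-/- cells its difference was 0.39 ± 0.10 (adjusted p = 0.0538 without the block and 0.0474 with it). Rxra, the partner receptor of LXR, was lower in Tet2-/- cells on the average by -0.31 ± 0.08 (adjusted p = 0.0901), and passed with the block (adjusted p = 0.0315). Smpdl3a, a secreted phosphodiesterase, had an average passage difference of -0.60 ± 0.17 (adjusted p = 0.0546), and passed with the block (adjusted p = 0.0133). 0 of the 7 passed between genotypes at either passage, and their median difference was 0.06 at passage 2 and 0.15 at passage 10. By unadjusted p under 0.05, 0 were higher and 3 lower in Tet2-/- cells at passage 2, against 4.29% and 5.65% of all genes. At passage 10, 1 was higher and 0 were lower, against 4.59% and 6.01%.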

How the data were processed

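RNA of 12 samples was measured on Affymetrix Mouse Gene ST 2.0 arrays from 100 ng of total RNA each. The values are log2 signals that the authors deposited, made with RMA in Affymetrix Power Tools per the submitters' processing notes; their versions were not given in the sources used here. They were used as deposited, and 0 columns lacked a mapped sample. Rows under the 30th percentile of the row means (4.70) were left out, 28941 of 41345 stayed, and 16860 genes with 1 symbol were tested, by the row with the highest mean. limma 3.58.1 in R 4.3.3 fitted 4 group means to all arrays, with two-sided moderated tests, adjusted over all genes.

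Whether replicates came from different cultures is not in the labels, so a p-value here reflects only how these samples varied, which may be technical. Deviations of arrays with the same number correlated at 0.201 to 0.517 over 18 pairs, against -0.369 to 0.0532 over 36 pairs with different numbers, so the numbers were taken to pair the samples. The main fit, its SEs and its calls leave this pairing out. The block is given where it changes a call of a member or of a further pathway gene.

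The members and gene lists were chosen with earlier results of these data known. All 32 members are named. Values by array were set for members passing in any comparison, with or without the block, and for the member with the lowest averaged p in each role; others were added after their values were seen. From the 3 further pathway lists the genes that passed are named, and cell cycle and marker lists are given by counts and ranges. The steps were tested on simulated data. RefSeq promoters of GRCm38.p6 were matched by symbol.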

Additional observations from a re-analysis of the deposited data

How the results depend on the processing

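The results were recomputed under 21 settings: leaving out each of the 12 arrays, and 9 others (quantile normalization, equal array medians, a stricter filter at the 50th percentile or none, robust trended limma, array weights, the replicate block, averaging the rows of a gene, and fitting only the arrays compared, which gives no value for averaged differences and the interaction). No difference of a named member that passed changed direction. The counts of members called at passage 2, at passage 10, with passage in Tet2fl/fl cells and for the interaction were 0 in every setting. Between genotypes on the average, where 0 members passed, the replicate block and array weights each gave 3, and leaving out 1 array gave 0 to 2. With passage in Tet2-/- cells, where 1 passed, the replicate block gave 3, array weights 2, fitting only the arrays compared 0, and leave-one-out fits 0 to 1. With passage on the average, where 2 passed, equal array medians and no filter each gave 1, the replicate block, array weights and the 50th percentile filter each gave 3, and leaving out 1 array gave 1 to 2. The block changed no other call of a member than those of Scd1, Abca1, Hsd17b7 and Mylip. Of 288 recomputed list medians 2 moved by more than 1 SD of the list mean between arrays: that of sterol synthesis between genotypes at passage 2, -0.126 to 0.016 with 1 array left out, lowest without Tet2-/- p2 replicate 3, and that of the other members with passage in Tet2-/- cells, 0.015 to 0.122, highest without Tet2-/- p10 replicate 1. The causes were not tested. With 3 arrays a group, a difference that misses the threshold is not shown to be absent.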
